A study of Mus musculus with 2 samples.

Results

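Among the regions bound by the transcription factor Ebf1 in mouse fat cells, 996 were strong peaks that stood alone. They were taken from a list of 34534 peaks made from 1 chromatin immunoprecipitation and sequencing (ChIP-seq) library, and were 2.88% of it. They were chosen by their deposited values and their spacing. A peak was kept if it lay on chromosomes 1 to 19, if its first deposited whole number, called the score here, was 55 or more, and if its second deposited whole number, called the second value, was 5 or less. No other peak of the list, whatever its score, could have its centre within a fixed distance, called the neighbour distance. Peaks that met the other limits but were spaced by up to 12.475 kb were left out by that distance, and the closest spacing kept was 12.5125 kb. The file does not say what the score or the second value measures, so "strong" means a high score and nothing more.

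The cells were 3T3-L1 adipocytes, made from a line of mouse fibroblasts by treating it with MDI, a hormonal mixture after which the cells fill with lipid droplets. They were fixed with 1% formaldehyde 10 days after MDI was added, and chromatin was precipitated with an antibody against Ebf1 (Abnova H00001879-M01). The labels name a second library, whole cell extract made without antibody, whose values were not analysed here. There is 1 library per group and no treatment to compare, so no value below has a replicate error, and no test was run. Intervals are 95% intervals that cover counting error only and treat peaks as independent. The depth behind each peak is unknown, and no expression data were used here to check the cell type against its marker genes.

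Ebf1 (early B cell factor 1) belongs to a small family of transcription factors that carry a zinc-containing DNA-binding domain and a helix-loop-helix region through which they pair. The paired protein binds a palindromic DNA site. Ebf1 is known for driving the B cell fate in lymphoid progenitors, and in preadipocytes it promotes fat cell formation together with Pparg and C/EBP factors. Binding sites of factors of this kind often lie in groups along a gene or its enhancers, while others have no site of the same factor close by. Genes and DNA sequence at these regions were not analysed here, because the gene and promoter tables at hand use another genome build (GRCm38), and peaks are given by their mm9 positions, start and end included.

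The score removed most of the list, and the spacing most of what was left. Of 33352 peaks on chromosomes 1 to 19, 3462 (10.4%) scored 55 or more, 97.3% had a second value of 5 or less, and 43.9% had no other centre within the neighbour distance. Score and second value together left 2903 peaks (8.70%), and the spacing then left the 996, or 2.99% of the peaks on these chromosomes. A peak is called strong below from its score alone, whatever its second value. The 2903 are called eligible strong peaks, and strong peaks with a neighbour are the 1907 of them that failed the spacing. These shares describe the choice of peaks and support nothing about Ebf1. The solitary strong peaks covered 618 kb in all and held 10.9% of the summed score of the list.

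Peaks lay close to each limit of the rule on both sides. There were 29 solitary strong peaks with the lowest score allowed, 55, and 28 solitary peaks with a score of 54 were left out. At the ceiling of the second value, 115 peaks at 5 were kept and 57 at 6 were left out, among them chr5:125520301-125521100 with a score of 311. The closest spacing kept, 12.5125 kb, was found at chr16:92253201-92253725 with a score of 58. The widest spacing left out, 12.475 kb, was shared by chr6:120865376-120865900 with a score of 65 and chr8:35883651-35884600 with a score of 94. The nearest peak lay at most 13 kb away for 32 of the kept peaks, and 28 eligible strong peaks whose nearest peak lay over 12 kb away were still left out.

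Scores of the solitary strong peaks were skewed. They ran from 55 to 597 with a median of 79 and quartiles of 65 and 102. A score under 100 was held by 718 peaks, 197 scored 100 to 149, 64 scored 150 to 199, and 17 reached 200 or more. The highest stood apart from the rest, at 7.56 times the median of the group. The highest and the second highest were followed by a drop, since the second highest scored 1.67 times the third.

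The strongest, chr17:4625901-4626800, scored 597 and was 900 bp wide. Its nearest peaks lay 109.2 kb to the left and 82.9 kb to the right, and the closer of them scored 6. No other peak of 55 or more lay within 1169.7 kb of it. The strongest peak of the group was thus also far from any other strong site.

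The second, chr13:113842426-113843300, scored 441 over 875 bp. Its next peaks lay 276.4 kb and 115.8 kb away. The one on the left, at 276.4 kb, was also the nearest with a score of 55 or more. The second values of these top peaks were 3 and 2.

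The third had a different setting. The peak at chr6:34425751-34426450 scored 264, and 17.3 kb to its right lay a peak with a score of 87. From the neighbour distance out to 500 kb there were 35 other peaks, of which 9 scored 55 or more. By the same count the strongest peak on chromosome 17 had 9 others, none of them strong. Standing alone at the scale of the rule therefore covered both sparse and well-filled surroundings.

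A pair of peaks scored 243. The one at chr1:161116651-161117400 had 13 other peaks within 500 kb and no strong one. The other, at chr6:50317651-50318450, stood 13.7 kb from a peak with a score of 20 and had 4 strong peaks in that range. The last peak listed on chromosome 7, chr7:152451776-152452525, scored 236. Its nearest peak lay 136.2 kb to the left, and 4 peaks lay within 500 kb, that one included.

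Chromosome 9 held 3 of the 20 highest, the last by a tie at 192 with a peak on chromosome 11 that was settled by chromosome order. It held 56 of all 996 solitary strong peaks. The peak at chr9:122052101-122052975 scored 224, chr9:54451901-54452575 scored 208, and chr9:109809526-109810250 scored 192. The nearest peak to the 208 was itself strong, with a score of 147 at 16.4 kb. The nearest peaks to the other two scored 13 and 7.

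Chromosome 6 held 4 of the 20, the most of any chromosome, and 56 of all 996 solitary strong peaks. With counts this small, no difference between chromosomes was tested. Beside the peaks already given, chr6:117455326-117456075 scored 222 with its next peaks 33.0 and 36.5 kb away. The peak at chr6:88320151-88320875 scored 217 with its next peaks 142.4 and 13.4 kb away. The last of these had a second value of 1, and its closer neighbour scored 11.

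Chromosome 2 held 3 of the 20 and 85 of all 996 solitary strong peaks. The peak at chr2:159911601-159912375 scored 218, with the nearest peak, of score 38, 60.1 kb away. The peak at chr2:84801251-84802225 scored 204 and had a width of 975 bp, the largest in the list and shared by 30 of its peaks. The peak at chr2:27792026-27792725 scored 203, and a peak of score 75 lay 49.4 kb from it.

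On chromosome 17, chr17:26708201-26708875 scored 216 and was the top-20 peak closest to another strong peak, a score of 156 at 13.2 kb. On chromosome 8, chr8:28132001-28132650 scored 213 in the fullest surroundings of the 20, with 47 other peaks within 500 kb. The peak chr12:9520651-9521400 scored 208 with a second value of 0, the only 0 among the 20. Its nearest strong peak was 992.5 kb away.

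The 3 that remain lay on chromosomes 7, 10 and 16. The peak at chr10:84590401-84591250 scored 204 with a neighbour of score 7 at 16.8 kb on the left and none for 712.0 kb on the right. The peak at chr16:35508526-35509275 scored 198, and chr7:29378401-29379225 scored 196 with its nearest peak 13.2 kb away. Over all 20, the distance to the nearest peak ran from 13.2 to 136.2 kb with a median of 23.2 kb. In 5 of the 20 that nearest peak was itself strong, and 3 of the 20 had no other strong peak within 500 kb.

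**Figure D1:**
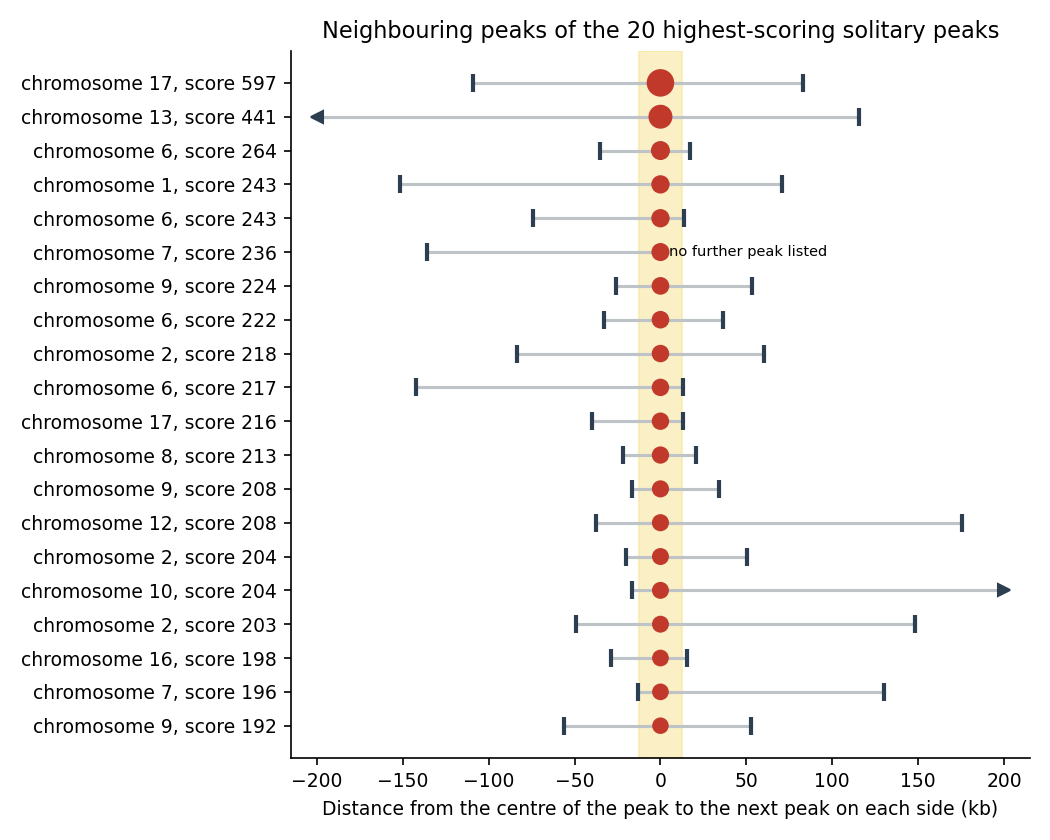
The 20 solitary Ebf1 peaks with the highest scores, 1 per line from 597 at the top to 192 at the bottom, each drawn as a red dot whose area follows its score. Dark bars mark the next peak on each side (x axis, kb), arrowheads mark a next peak over 200 kb away, and the yellow band is the neighbour distance kept free by the rule. The neighbour on one side is often much farther than on the other, as at the peak of score 204 on chromosome 10 (16.8 and 712.0 kb).

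Every chromosome from 1 to 19 had a member of at least 143, and on 10 of the 19 the highest reached 200. On the chromosomes with none of these 20, the highest member was 192 on chromosome 11 (chr11:60054551-60055250), 190 on chromosome 15 (chr15:80917351-80918000), 189 on chromosome 4 (chr4:115519126-115519750) and 187 on chromosome 18 (chr18:75117526-75118325). Chromosome 19 followed with 174 (chr19:47966226-47966800), chromosome 5 with 160 (chr5:108444001-108444800) and chromosome 3 with 155 (chr3:129775876-129776525). Chromosome 14 had the lowest maximum, 143 at chr14:73873626-73874325. The medians by chromosome were closer together, between 73 on chromosome 18 and 90 on chromosome 15.

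How often a peak stood alone was lower at higher scores. Among peaks with a second value of 5 or less, 56.1% (exact Clopper-Pearson interval 53.7 to 58.6) of the 1602 with scores of 3 to 5 were solitary. The share was 42.4% (41.2 to 43.6) at scores of 11 to 15 and 40.1% (37.6 to 42.6) at 41 to 54. Above the threshold it was 35.7% (33.0 to 38.5) at 55 to 74, 36.6% (33.3 to 40.1) at 75 to 99, 31.4% (27.8 to 35.2) at 100 to 149 and 33.7% (27.0 to 40.9) at 150 to 199. These 4 intervals overlap, the shares did not fall steadily from band to band, and differences between the bands were not tested. At 200 and above, 17 of 97 peaks, 17.5% (10.6 to 26.6), were solitary. Score and spacing are both part of the rule, so this is a description of the list.

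**Figure D2:**
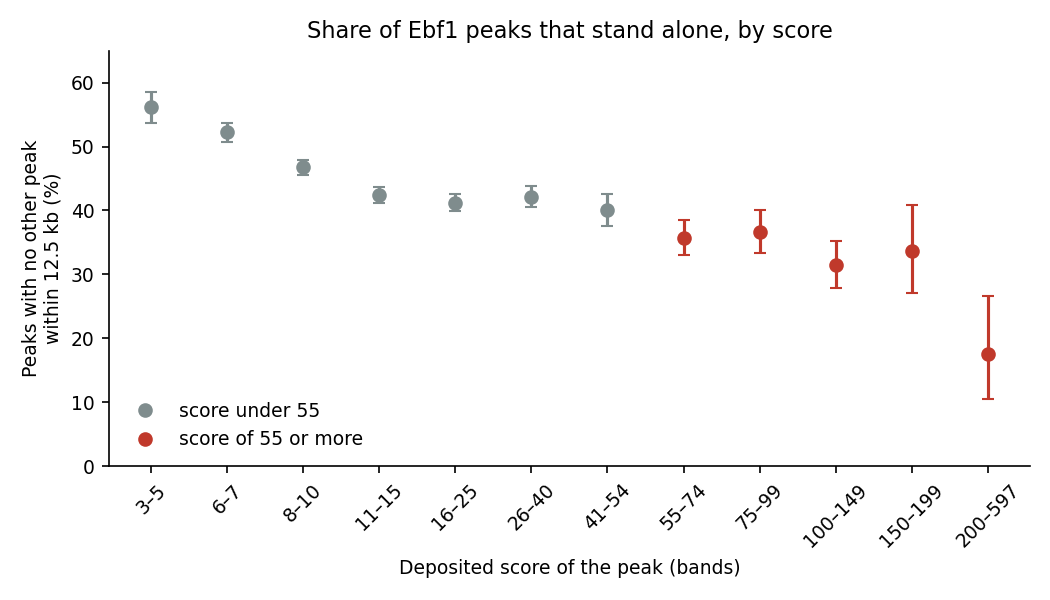
Share of peaks on chromosomes 1 to 19 with no other peak centre within the neighbour distance (y axis, %) in 12 bands of deposited score (x axis), for peaks with a second value of 5 or less. Dots are shares and bars are exact 95% binomial intervals. The share goes from 56.1% at scores of 3 to 5 to 17.5% at 200 or more, with the bands between 55 and 199 at 31.4 to 36.6%.

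The strongest peaks of the list were mostly not among the solitary ones. Of the 10 highest-scoring peaks with a second value of 5 or less on these chromosomes, 2 were solitary, and of the 50 highest 6 were, or 12% (4.53 to 24.3). Among the 200 highest the number was 48, or 24% (18.3 to 30.5). Over all 2903 eligible strong peaks it was 34.3% (32.6 to 36.1). The other 1907 had at least 1 neighbour within that distance.

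Most of those neighbours were weak, as was most of the list, where 10.4% of peaks on chromosomes 1 to 19 scored 55 or more. In 1356 of the 1907, or 71.1% (69.0 to 73.1), every peak within the neighbour distance scored under 55, and in 551 another strong peak was that close. If only strong peaks counted as neighbours, 2352 of the 2903 would stand alone in place of 996. Whether a strong peak counts as solitary thus rested largely on peaks of low score. Because the depth is not known, how many of those low peaks a deeper or shallower library would list was not tested.

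Beyond the distance set by the rule, the solitary strong peaks were separated from their nearest peak by a median of 27.9 kb, with quartiles of 18.2 and 45.5 kb. Of the 996, 552 had no other peak within 25 kb, 214 none within 50 kb and 69 none within 100 kb. The nearest peak was usually weak, with a median score of 14, against 13 for the nearest peaks of all peaks on these chromosomes. It was strong in 120 cases, 12.05% (10.1 to 14.2), against 10.96% (10.6 to 11.3) over all peaks and 15% (13.4 to 16.7) for strong peaks that had a neighbour. The next strong peak lay at a median of 137.4 kb with quartiles of 59.7 and 351 kb. That was close to the median of 129.7 kb over all peaks on these chromosomes (quartiles 34.9 and 427), and lay between 49.0 kb for strong peaks with a neighbour and 244.8 kb for weaker solitary peaks. Of the strong peaks with a neighbour, 551 had another strong peak within the neighbour distance, which no member can have. Part of the difference from them is therefore set by the rule.

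**Figure D3:**
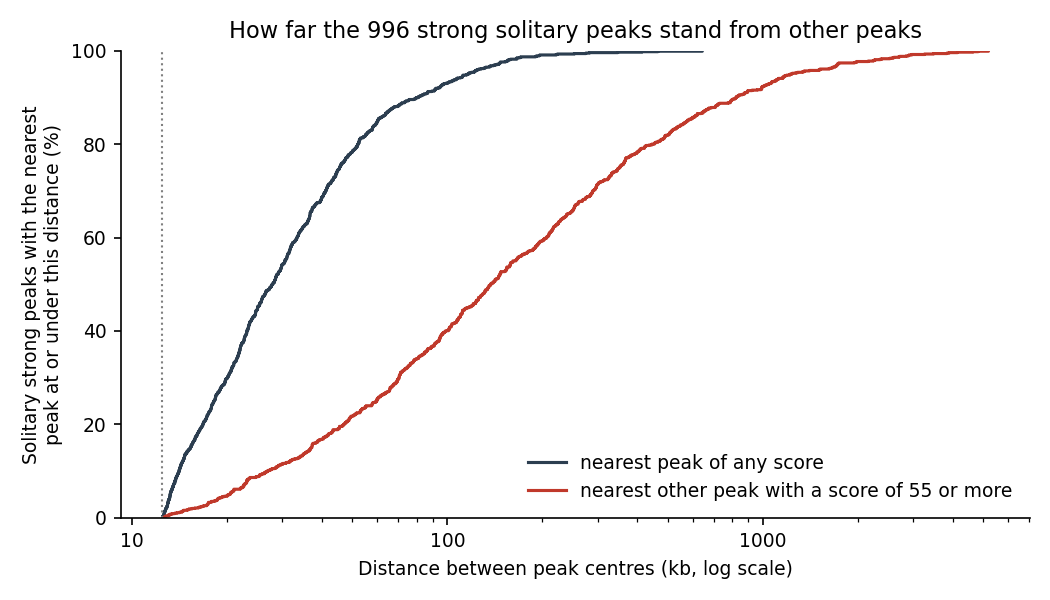
Cumulative share of the 996 strong solitary peaks (y axis, %) whose nearest peak lies at or under a given distance between centres (x axis, kb, log scale), for the nearest peak of any score (dark line) and the nearest other peak with a score of 55 or more (red line). The dotted line is the neighbour distance of the rule. The medians are 27.9 and 137.4 kb.

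The most isolated member was chr6:132413476-132414050, which scored 113. Its next peaks lay 750.8 kb to the left and 642.9 kb to the right, and it was the only member without another peak within 500 kb. After it came chr14:104735901-104736450 with a score of 62 and a nearest peak at 465.0 kb, and chr6:148654126-148654650 with a score of 64 and a nearest peak at 413.3 kb. None of these 3 was among the 100 highest scores of the group. The 69 members with no peak within 100 kb had a median score of 71, against 80.5 for the 444 members whose nearest peak lay within 25 kb.

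Distance to a strong peak picked out other members, chosen after their values were seen. The peak at chr12:15704801-15705500, with a score of 145, had no other strong peak within 5191.6 kb, although weaker peaks lay 44.9 and 151.8 kb from it. The peaks chr14:99921126-99921650, with a score of 58, and chr9:3334726-3335600, with a score of 81, were 4814.8 and 4626.8 kb from the next strong peak. In all, 180 members, 18.1% (15.7 to 20.6), had no other strong peak within 500 kb, and 76 had none within 1000 kb. Over all peaks on these chromosomes the share with none within 500 kb was higher, at 22.0% (21.5 to 22.4), and over weaker solitary peaks it was 32.1% (31.3 to 32.9). Over strong peaks with a neighbour it was lower, at 8.70% (7.48 to 10.1). Some of these have a strong peak within the neighbour distance, which no member can have. None within 1000 kb held for 7.63% of members and 4.14% of strong peaks with a neighbour. It held for 11.7% of all peaks and 17.8% of weaker solitary peaks. Across the 996 members, score had almost no relation to the distance to the nearest peak (Pearson's r = -0.01, Spearman's rho = -0.08) or to the nearest strong peak (r = -0.02, rho = -0.10). Members share 1 library, so these coefficients describe the list.

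The wider surroundings were compared by counting other peaks from the neighbour distance out to 500 kb from each centre, a range the rule did not set. Solitary strong peaks had a median of 20 such peaks (quartiles 13 and 27). Strong peaks with a neighbour had 25 (17 and 34), weaker solitary peaks had 16 (9 and 25), and all peaks on these chromosomes had 21 (13 and 31). A strong peak lay in that range for 81.9% (79.4 to 84.3) of the solitary strong peaks, 88.6% (87.1 to 90.0) of strong peaks with a neighbour 67.9% (67.1 to 68.7) of the 13387 weaker solitary peaks and 76.7% (76.2 to 77.1) of all peaks on these chromosomes. The quartile ranges of the groups overlapped widely, and since peaks near each other share their surroundings the intervals are too narrow. The solitary strong peaks lay between strong peaks with a neighbour and weaker solitary peaks in both counts. Beside all peaks, their median count was 1 lower and the share with a strong peak in range was higher.

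Most solitary strong peaks did not follow each other along the chromosome. In 870 cases the next listed peak on each side was not a member. There were 57 pairs and 4 runs of 3 in which members were next to each other in the list with nothing between, 126 members in all, or 12.7% (10.6 to 14.9). Over all peaks on these chromosomes, 5.87% (5.62 to 6.13) had a member next to them in the list. The share was 8.81% (8.33 to 9.30) for weaker solitary peaks and 3.67% (2.87 to 4.62) for strong peaks with a neighbour. A listed peak within the neighbour distance of another cannot be a member, so part of these differences is set by the rule. The runs of 3, picked out after their values were seen, lay on chromosomes 3, 4, 6 and 14. The tightest spanned 69.3 kb on chromosome 3 with scores of 70 (chr3:107816601-107817200), 57 (chr3:107864251-107864750) and 85 (chr3:107885251-107885850). The widest spanned 359 kb on chromosome 14, with scores of 92, 76 and 74. The run on chromosome 6 held the highest score of the 12 peaks, 126 at chr6:99859426-99860050.

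The median distance from a member to the nearest other member was 517 kb, and 24 members had another within 25 kb. Of the 2325 windows of 1 Mb on these chromosomes that held any peak, 721 held at least 1 member and 520 of those held exactly 1. The fullest window, chosen for its count, was on chromosome 2 from 27 to 28 Mb, where 6 of 47 peaks were members. They scored 82, 58, 84, 79, 75 and 203, the last being chr2:27792026-27792725 named above. The window held 11 strong peaks in all.

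Wider members had higher scores. Width ran from 425 to 975 bp with a median of 600 bp and quartiles of 550 and 675 bp. The median score was 59 for the 43 members of 425 to 475 bp, 71 for the 413 of 500 to 575 bp, 87 for the 314 of 600 to 675 bp, 108.5 for the 150 of 700 to 775 bp and 110.5 for the 76 of 800 bp or more. Across the 996 members, Pearson's r of width with score came to 0.52 and Spearman's rho to 0.57. Score and width come from the same calling, and the list was restricted on the score, so no test was made. The largest width, 975 bp, was shared by 30 peaks of the whole list, and whether the calling limited the width is not known.

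The narrowest members had low scores, while the widest differed among themselves. The narrowest, both 425 bp, were chr6:100659351-100659775 with a score of 57 and chr8:125897401-125897825 with a score of 55. Of the 3 with a width of 975 bp, beside the one on chromosome 2 with a score of 204, chr12:36908701-36909675 scored 133 and chr11:22747476-22748450 scored only 89. At the same score, solitary peaks and those with a neighbour had like median widths. At scores of 55 to 74 the median was 550 bp for 419 solitary peaks (quartiles 525 and 600) and 550 bp for 754 with a neighbour (525 and 625). It was 600 bp in both groups at 75 to 99, 650 bp in both at 100 to 149 and 725 bp in both at 150 to 199. At 200 or more the medians were 750 bp for 17 solitary peaks (700 and 850) and 800 bp for 80 with a neighbour (725 and 850), whose quartile ranges overlap.

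**Figure D4:**
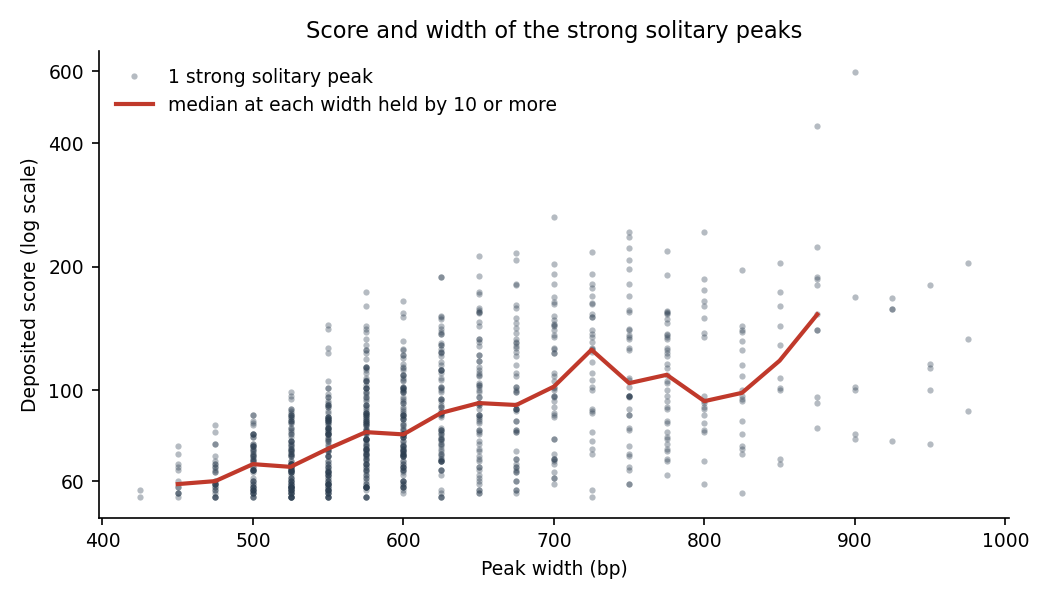
Deposited score (y axis, log scale) against peak width (x axis, bp) for the 996 strong solitary peaks. Each dot is 1 peak, and the red line joins the median score at each width held by 10 or more of them. Scores rise with width up to about 700 bp and spread widely beyond, where the 76 peaks of 800 bp or more include both the highest score, 597, and scores under 60.

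The second value was low by the rule and spread over its allowed range. It was 0 in 98 members, 1 in 195, 2 in 254, 3 in 207, 4 in 127 and 5 in 115. The median score went from 72.5 at 0 to 88 at 5, a small change beside the spread of scores, and rho between score and second value was 0.15. At scores of 55 to 74 it averaged 2.23 ± 1.45 (SD, n = 419 peaks) in solitary peaks and 2.55 ± 1.42 (SD, n = 754 peaks) in strong peaks with a neighbour. At 75 to 99 the averages were 2.35 ± 1.41 (n = 299 peaks) and 2.70 ± 1.48 (n = 517 peaks). Above that they differed less, with 2.70 ± 1.49 (n = 197 peaks) and 2.64 ± 1.46 (n = 430 peaks) at 100 to 149. At 150 to 199 they were 2.875 ± 1.67 (n = 64 peaks) and 2.98 ± 1.52 (n = 126 peaks). At 200 or more they were 3.06 ± 1.39 (n = 17 peaks) and 3.275 ± 1.44 (n = 80 peaks). The average was thus higher in peaks with a neighbour in every band but 100 to 149. The SD gives the spread over peaks and not the error of an average, and the differences were not tested. Among strong peaks the rule left out for a second value of 6 or more, 148 of 559 were solitary, 26.5% (22.9 to 30.3). Their scores had a median of 93.

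Members occurred on every chromosome from 1 to 19, between 22 on chromosome 19 and 85 on chromosome 2. These chromosomes together held 0.413 members per Mb, taking each chromosome from its first listed peak to its last. The densest was chromosome 15 with 57 members or 0.568 per Mb (exact Poisson interval 0.431 to 0.736). After it came chromosome 10 at 0.544 (0.423 to 0.688) and chromosome 11 at 0.540 (0.416 to 0.689). The intervals of these 3 lay above the overall rate. Chromosome 1 was the sparsest, with 59 members or 0.305 per Mb (0.232 to 0.393), and its interval alone lay below that rate. The densest and the sparsest differed by 1.86 times, against 2.71 times for all 2903 eligible strong peaks. The difference between these ratios was not tested, and each rests on chromosomes picked for their extremes. Peaks of any score also differed in density, from 8.21 per Mb on chromosome 14 to 21.3 on chromosome 19. There were 9.91 per Mb on chromosome 1, 11.3 on chromosome 10, 16.8 on chromosome 11 and 15.9 on chromosome 15. Whether members departed from the density of all peaks was not tested. The 19 intervals were each set against the overall rate without correction for their number.

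The share of eligible strong peaks that stood alone varied from 20% (12.98 to 28.7) of 110 on chromosome 19 to 51.2% (40.04 to 62.3) of 84 on chromosome 18. Chromosome 8 was also low, with 52 of 205 or 25.4% (19.6 to 31.9), as was chromosome 6 with 56 of 214 or 26.2% (20.4 to 32.6). Chromosome 13 was high, with 41 of 88 or 46.6% (35.9 to 57.5). Over the 19 chromosomes this share was lower where the list held more peaks per Mb (Pearson's r = -0.82, Spearman's rho = -0.77). All points come from 1 list, and a denser list leaves fewer peaks alone by construction. Chromosome 19, with 21.3 peaks per Mb, and chromosome 18, with 9.84, were at the ends of the shares.

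**Figure D5:**
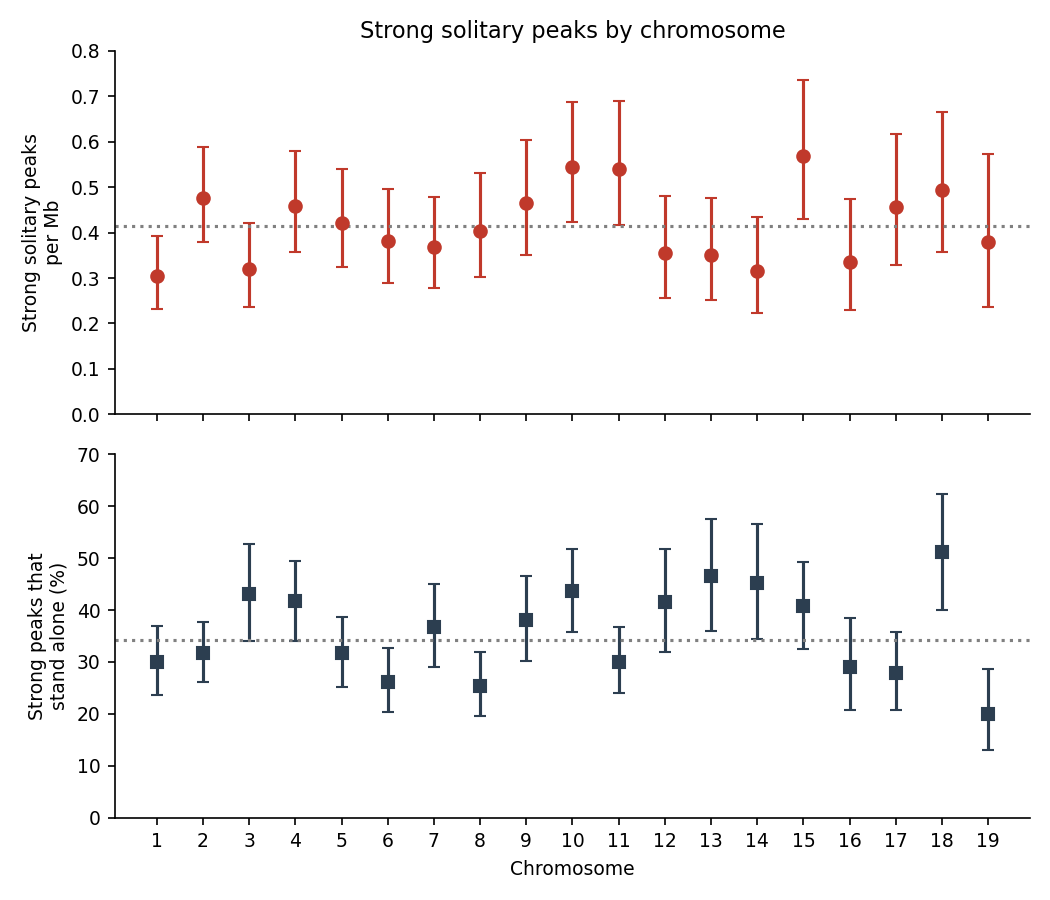
Strong solitary Ebf1 peaks on chromosomes 1 to 19 (x axis). The upper panel gives their number per Mb with exact 95% Poisson intervals, and the lower panel the share of eligible strong peaks that stand alone (%) with exact 95% binomial intervals. Dotted lines are the values over all 19 chromosomes, 0.413 per Mb and 34.3%. Chromosome 15 is highest in the upper panel, and chromosomes 19 and 18 are the lowest and highest in the lower panel.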

How the data were processed

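The deposited file is a peak list of the 1 Ebf1 ChIP library on mm9, per the submitters' processing notes, which also name SAMtools. The aligner, the peak caller with its threshold, and the part played by the whole cell extract are not stated (not given in the sources used here). Per the labels' protocols, fragments with ligated adaptors were size-selected at 275 to 700 bp and amplified for 18 PCR cycles. The authors deposited 2 whole-number columns as scores without stating their unit. The score ran from 3 to 597 and the second value from 0 to 15, and neither was treated as a read count. Positions were used as deposited, 1-based with both ends included. Distances are between centres. The neighbour distance of the rule was 12.5 kb, and a spacing of exactly that length counted as a neighbour. The rule and the distances were tested on simulated positions. No model was fitted, and no test between groups was run, as peaks are not replicates. The regions named are the 20 highest members, the highest of each chromosome, the 3 farthest from any peak, the widest and narrowest, and those at the limits of the rule, with ties ordered by chromosome and start. The members farthest from a strong peak, the runs, the fullest window and the peak on chromosome X were added after their values were seen. The members, the alternatives and the named regions were chosen with earlier results of these data known. Planned analyses of gene location, motifs and gene lists need an mm9 genome and were not run. Intervals were computed with scipy 1.17.1 and tables with pandas 2.3.3 and numpy 2.4.6, in Python 3.11.15, and figures were drawn with matplotlib 3.10.9.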

Additional observations from a re-analysis of the deposited data

Results flagged for a closer look

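Strong solitary peaks also occurred on a chromosome the rule leaves out. On chromosome X, 26 peaks met the limits on score, second value and spacing, 65% (exact Clopper-Pearson interval 48.3 to 79.4) of its 40 strong peaks with a second value of 5 or less. They numbered 0.159 per Mb (exact Poisson interval 0.104 to 0.233), 0.385 of the rate on chromosomes 1 to 19. Peaks of any score were also sparser there, with 804 over 163.4 Mb. The sparsest of chromosomes 1 to 19, chromosome 14, held 8.21 per Mb. A sparser list leaves more peaks alone by construction. The scores of the 26 had a median of 68.5, and the highest was 172 at chrX:9639101-9639750. Chromosome Y had 1 such peak, with a score of 73, and the unplaced sequences had none among 10 strong peaks (exact upper limit 30.8%). The unplaced sequences held 345 peaks of any score. Their lengths were not taken into account, so their share cannot be compared with that of a chromosome. The difference between chromosome X and the others was not tested.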

How the results depend on the processing

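Of 22 alternative values, 6 stayed within the limits set for them and 16 moved. The limit was a factor of 1.5 for counts and the 95% counting interval for shares, medians and the ratio between chromosomes. For the median width that interval ran from 600 to 600 bp, so any change counted as moved. Stricter limits shorten the list by construction, so most of the movement shows only how many peaks each limit keeps. The 996 members became 577 at a score of 75 or more and 278 at 100 or more. With no other centre within 5, 25, 50 or 100 kb they numbered 1610, 552, 214 and 69, and with neighbours only at a score of 55 or more 2352. The solitary share of eligible strong peaks, 34.3%, was 30.4% at a score of 100 or more, and 55.5%, 19.01% and 7.37% with 5, 25 and 50 kb. The median width of 600 bp became 625 and 675 bp at scores of 75 and 100 or more and 575 bp with 50 kb. The median distance to a strong peak, 137.4 kb, was 223.9 and 427.2 kb where strong meant 75 or 100 or more. Motif and gene location alternatives need an mm9 genome and were not run. No paired analysis was possible because values of only 1 library were at hand, which also left no replicate to omit. The depth is unknown, which limits every count that rests on weak neighbours.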
